A study of Arabidopsis thaliana with 6 samples.

Results

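The plastid-encoded genes of Arabidopsis thaliana were followed in the csu6-2 mutant. They were taken as all entries whose identifier begins with ATCG and whose value reached 1 RPKM (reads divided by gene length and by the reads of the library) in 3 or more libraries. Of 133 such identifiers 111 met the rule, among 18885 genes tested of 32678 listed. The 22 left out were mostly copies in the inverted repeat, the duplicated stretch of the plastid genome. Just inside the limit lay trnQ, at 0.5 to 1.6 RPKM with 3 libraries at 1 or more, and just outside it trnI-GAU.2, at 0 to 3.51 RPKM with 2 such libraries.

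The libraries came from whole seedlings of Col-0, the wild-type accession, and of csu6-2, a mutant in COP1 SUPPRESSOR 6, all grown for 5 days in white light. There were 3 libraries of each genotype, made from RNA bound to oligo(dT) beads and copied with random hexamers. The labels do not say whether the libraries of a genotype came from separate cultures, so a p-value covers only the spread between these libraries. The labels give no locus for the mutated gene, so its own transcript was not examined.

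Depth, read back from the plastid values themselves as the read total used for RPKM, was 27.7 to 43.5 M (mega) reads per library. These values do not tell whether that total counts gene-assigned, mapped or all reads. Markers of green tissue summed to 25335 to 31416 RPKM and root markers to 40.2 to 56.3 RPKM, so markers of both were present. Seed storage markers summed to at most 2.34 RPKM, and the pollen markers VGD1 and TIP5;1 were at 0 in all 6 libraries. Because the tissue was mixed, fewer cells of a type and less RNA per cell cannot be told apart.

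The plastid genome encodes core subunits of the photosynthetic complexes, part of the plastid ribosome and of a bacterial-type RNA polymerase, and the tRNAs and rRNAs used in plastid translation. A second, nucleus-encoded polymerase of the phage type also transcribes it. Most plastid transcripts carry no stable poly(A) tail, and in plastids a short A-rich tail marks an RNA for decay. Oligo(dT) selection may therefore sample plastid RNA unevenly, and the levels here are levels in that selected RNA.

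Per length, a few short genes held most of the plastid signal: psbM and rpl32 were 55.8 to 62.4% of the summed plastid RPKM, though 25.2 to 36.1% of the plastid reads. The stretch around the longest run of A after a gene is shown for psbM, rpl32 and atpE. These are the 3 protein-coding members outside the inverted repeat with the highest mean level. The same stretch is shown for rbcL and psbE, which are among the 3 with the widest spread between Col-0 libraries. Each line is 30 bases of the sense strand from the TAIR10.1 plastid sequence, with the longest run of A within 100 bases after the coding end in capitals.
psbM: ttactatcAAAAAAAAAAAAAgatttcaat
rpl32: taaatacatctAAAAAAAAtaggaagcaaa
atpE: gctgacgtgtAAAAAAAAAgaatgtataaa
rbcL: cttttttttactAAAAAAgattgagccgag
psbE: gaggacccAAtgactatagataggacctat
In the order shown they span plastid positions 28664 to 28693 (minus strand), 113656 to 113685 (plus), 52224 to 52253 (minus), 56456 to 56485 (plus) and 64041 to 64070 (minus). All lie downstream of the coding end, where the annotation lists no part of that gene. The psbE stretch, however, runs into psbF, listed at 63942 to 64061 on the same strand. Its run length is therefore not from a region like the others. The run was 13 bases after psbM, 8 after rpl32 and 9 after atpE, against 6 after rbcL and 2 after psbE. A run of 8 or more A followed 15 of 78 protein-coding members (19.2%). Of all 100-base windows of the plastid genome on either strand, coding sequence included, 6.54% held one. These windows were not matched to stretches after genes, so the shares come from unlike regions. The median level of members followed by a run of 8 or more A was 45.6 RPKM and of those without it 41.3 RPKM.

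psbM, a small subunit of photosystem II, read 10771, 12109 and 12545 RPKM in Col-0 and 12141, 11884 and 12759 RPKM in csu6-2. It had the highest mean of all genes listed. rpl32, a protein of the large ribosomal subunit, read 10428, 12082 and 12840 RPKM in Col-0 and 9081, 9936 and 9837 RPKM in csu6-2. Every csu6-2 library lay under every Col-0 library for rpl32, but its log2 change of -0.29 (SE 0.10) had a limma adjusted p of 0.0737. For psbM the groups overlapped, with a log2 change of 0.06 (SE 0.09, limma adjusted p = 0.74). Both genes are short (105 and 159 bases), and a level per kilobase of so short a gene depends strongly on the length used.

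Together psbM and rpl32 made up 2.58 to 3.06% of all summed RPKM. All plastid entries made up 4.13, 4.97 and 5.47% in Col-0 and 4.2, 4.21 and 4.57% in csu6-2. The means were 4.86 ± 0.679% and 4.33 ± 0.215% (SD, n = 3 each), and an exact permutation test over libraries, two-sided, gave p = 0.4, where 0.1 is the smallest value that 3 against 3 can give. In a share of the read total used for RPKM, short genes weigh less. By that measure plastid genes of known length made up 0.772, 0.994 and 1.34% in Col-0 and 0.801, 0.901 and 1.05% in csu6-2 (exact permutation p = 0.7). Without Col-0 replicate 3 the difference in summed RPKM shrank from -0.53 to -0.22 percentage points, and without Col-0 replicate 1 it grew to -0.89.

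Few plastid genes differed between the genotypes, and those that did were lower in csu6-2. With limma on log2(RPKM + 1), 9 of 111 members were lower and 0 higher at an adjusted p under 0.05. Among all tested genes 9.38% were lower and 3.55% higher, so in this fit the share of plastid genes called lower (8.11%) was near the background. At an unadjusted p under 0.05, 30 members (27.0%) were lower and 0 higher, against 20.3% of all tested genes lower. The log2 change, always csu6-2 minus Col-0, was below 0 for 101 members, with a median of -0.37 against -0.07 over all tested genes. Between replicates the median over members had an SD of 0.32 on the log2 scale. Members are not replicates, so the count below 0 is no test. The number called lower was 4 without Col-0 replicate 3, 5 without replicate 2 of either genotype, 5 without csu6-2 replicate 3, and 35 without Col-0 replicate 1 (31.8%, against 7.9% of all genes tested without it). The median was -0.61 without Col-0 replicate 1 and -0.16 without Col-0 replicate 3. With the replicate number as a block 21.6% of members were lower, against 11.4% of all tested genes. The 9 genes were the tRNA genes trnS-GCU, trnfM and trnT-UGU, the ribosomal protein genes rps15, rps18, rpl20 and rpl36, the protease gene clpP1, and ycf1.2.

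**Figure D1:**
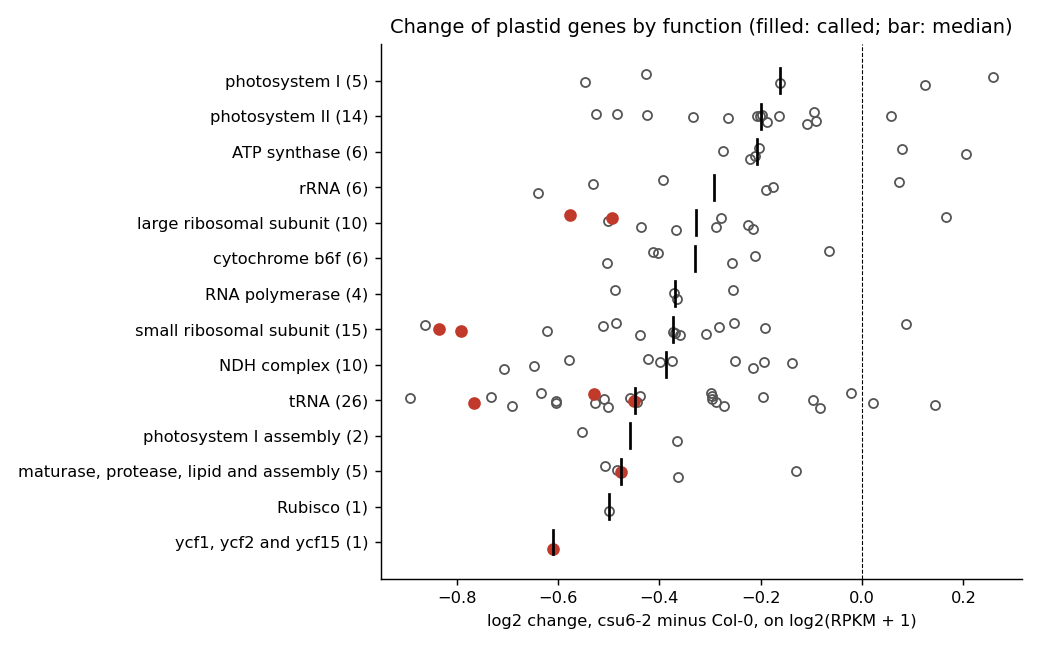
Log2 change of each plastid gene, csu6-2 minus Col-0 (RPKM plus 1, log2), by functional group with the number of members in brackets; filled points are the 9 genes called lower by limma and bars are group medians. Medians of the groups lie below 0, from -0.61 to -0.16, and the called genes fall among tRNA, ribosomal protein, protease and ycf1 genes.

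The calls of 3 tRNA genes and of rps15 held in each alternative fit. The tRNA sequences are shown because these genes were lower with any library left out, each as the tRNA reads 5′ to 3′ in the TAIR10.1 plastid sequence, with the anticodon in capitals.
trnS-GCU: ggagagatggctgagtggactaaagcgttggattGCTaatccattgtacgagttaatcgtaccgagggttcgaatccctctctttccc
trnfM: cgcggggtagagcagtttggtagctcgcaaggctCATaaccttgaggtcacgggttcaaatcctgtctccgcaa
trnT-UGU: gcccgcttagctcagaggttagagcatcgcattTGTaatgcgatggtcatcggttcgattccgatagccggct
All 3 lie in the large single-copy region, at plastid positions 7785 to 7872, 36704 to 36777 and 46213 to 46285. For trnS-GCU the reference lists the plus strand, whereas the anticodon loop reads on the minus strand, which is printed.

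trnT-UGU, which decodes threonine, read 890, 982 and 957 RPKM in Col-0 and 707, 663 and 595 RPKM in csu6-2. All csu6-2 libraries lay below all Col-0 libraries, and the log2 change was -0.53 (SE 0.08, limma adjusted p = 0.00144). trnS-GCU, which decodes serine, read 168, 195 and 200 RPKM in Col-0 and 137, 145 and 130 RPKM in csu6-2, again without overlap. Its log2 change was -0.45 (SE 0.08, limma adjusted p = 0.0033).

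trnfM, the initiator tRNA of plastid translation, read 24.2, 21.4 and 21.5 RPKM in Col-0 and 15.5, 13.2 and 9.97 RPKM in csu6-2. These values rest on 44 to 69 reads per Col-0 library and 24 to 43 per csu6-2 library. The groups did not overlap, and the log2 change was -0.77 (SE 0.13, limma adjusted p = 0.00437). All 3 tRNA calls held in each of 15 alternative fits, with a highest adjusted p of 0.0238 when any 1 library was left out.

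In 4 of the other 23 tRNA genes csu6-2 lay wholly below Col-0, against 23% of all tested genes. None of these 23 tRNA genes passed, and 21 had a log2 change below 0. trnL-UAA, the most abundant of them, read 2675, 3283 and 3661 RPKM in Col-0 and 2534, 2359 and 2910 RPKM in csu6-2, with overlapping groups (limma adjusted p = 0.127). trnA.1, the inverted-repeat copy with the largest tRNA change (log2 change -0.89, SE 0.43, limma adjusted p = 0.255), rested on 1 to 10 reads per library. The files do not tell a mature tRNA from a longer transcript that spans its gene. psbI lies next to trnS-GCU but is listed on the plus strand, whereas the anticodon loop of trnS-GCU reads on the minus strand. A psbI transcript that reached this tRNA gene would be antisense to it, and no strand setting is stated. psbI read 180, 262 and 287 RPKM in Col-0 and 157, 154 and 187 RPKM in csu6-2 (log2 change -0.52, SE 0.18, limma adjusted p = 0.12).

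**Figure D2:**
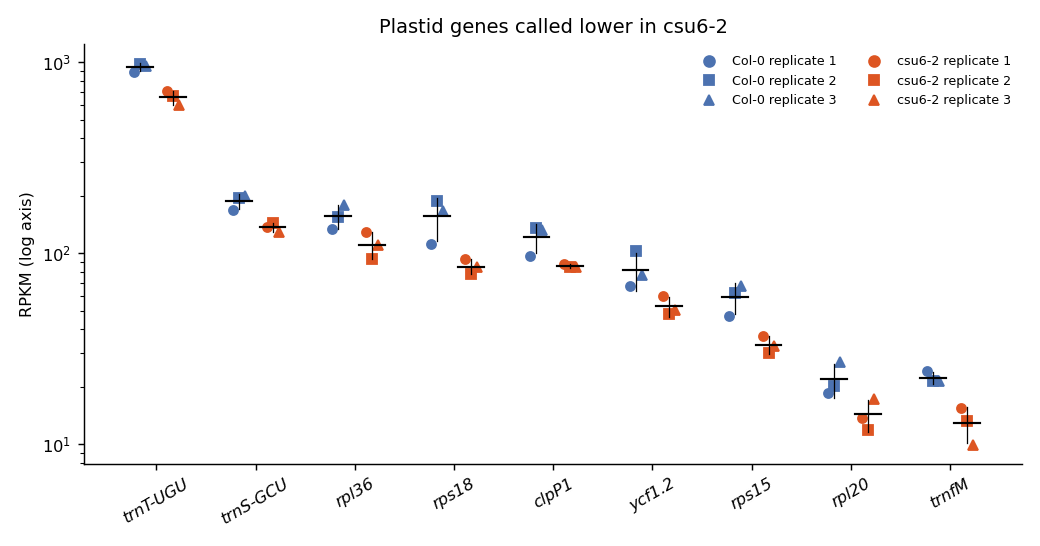
RPKM (log axis) of the 9 plastid genes called lower in csu6-2, in each of 3 Col-0 and 3 csu6-2 libraries; horizontal lines are means and vertical lines 1 SD to each side. For each of the 9 genes the highest csu6-2 library lies below the lowest Col-0 library.

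Among genes for the plastid ribosome, 4 of 25 measured members were lower and 0 higher, against 9.38% and 3.55% of all tested genes. rps15, a protein of the small subunit, read 46.9, 61.6 and 67.8 RPKM in Col-0 and 37.0, 30.1 and 32.7 RPKM in csu6-2. The groups did not overlap, the log2 change was -0.79 (SE 0.13, limma adjusted p = 0.00475), and the call held in all 15 alternatives. rps18, also of the small subunit, read 112, 189 and 167 RPKM in Col-0 and 93.2, 77.8 and 84.9 RPKM in csu6-2, a log2 change of -0.83 (SE 0.20, limma adjusted p = 0.0452).

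The large-subunit genes called were rpl20 and rpl36. rpl20 averaged 21.9 ± 4.35 RPKM in Col-0 and 14.3 ± 2.78 RPKM in csu6-2 (SD, n = 3 each). Its log2 change was -0.58 (SE 0.16, limma adjusted p = 0.0468). rpl36 averaged 156 ± 22.3 and 111 ± 18 RPKM, a log2 change of -0.49 (SE 0.13, limma adjusted p = 0.042). The calls of rps18, rpl20 and rpl36 were each lost without 1 of several libraries, to adjusted p-values of up to 0.186, 0.127 and 0.154.

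rps16, with the largest change of this group, read 6.30, 11.8 and 11.7 RPKM in Col-0 and 4.45, 5.77 and 4.35 RPKM in csu6-2. Its groups did not overlap, but its adjusted p was 0.0519 in limma (log2 change -0.86, SE 0.23). rps14, the most abundant small-subunit gene, stayed between 282 and 369 RPKM, with a log2 change of 0.09 (SE 0.09, limma adjusted p = 0.595). Over all members 19 (17.1%) had csu6-2 wholly below Col-0, against 23% of all tested genes, and 0 had it wholly above, against 9.04%. Of the 19, 9 were among the 25 measured ribosomal protein genes.

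clpP1, the catalytic subunit of the plastid Clp protease, read 96.6, 135 and 132 RPKM in Col-0 and 88.4, 84.4 and 85.2 RPKM in csu6-2, a log2 change of -0.48 (SE 0.11, limma adjusted p = 0.0214). ycf1.2, which encodes a protein of the inner envelope, averaged 82.2 ± 18.6 RPKM in Col-0 and 52.9 ± 6.26 RPKM in csu6-2, a log2 change of -0.61 (SE 0.16, limma adjusted p = 0.0449). The ycf1.2 and clpP1 calls were also lost without single libraries, to adjusted p-values of up to 0.185 and 0.0841. Several called genes are neighbours: rps18, rpl20 and clpP1 have consecutive identifiers, as have rps15 and ycf1.2. However, rps18 is listed on the plus strand and rpl20 and clpP1 on the minus strand. The 5′ exon of rps12 lies between rpl20 and clpP1 on the minus strand, and it was not called.

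The 4 measured genes of the plastid-encoded RNA polymerase did not pass. rpoA, the alpha subunit, averaged 67.2 ± 12.2 RPKM in Col-0 and 52.0 ± 11.2 RPKM in csu6-2 (limma adjusted p = 0.312). rpoB, the beta subunit, read 4.44, 7.42 and 7.13 RPKM in Col-0 and 4.43, 3.79 and 4.19 RPKM in csu6-2, with a log2 change of -0.49 (SE 0.15, limma adjusted p = 0.0575). The medians of the 4 genes were 3.3 to 6.4 RPKM in Col-0 and 3.4 to 3.6 RPKM in csu6-2.

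accD, the plastid-encoded subunit of acetyl-CoA carboxylase, read 2.27, 4.2 and 4.61 RPKM in Col-0 and 1.84, 2.23 and 2.81 RPKM in csu6-2 (log2 change -0.48, SE 0.20, limma adjusted p = 0.147). matK, a maturase for group II introns, read 15.5, 25.7 and 37.3 RPKM in Col-0 and 15.8, 14.9 and 21.0 RPKM in csu6-2 (log2 change -0.51, SE 0.35, limma adjusted p = 0.437). The groups overlapped for both genes.

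None of the 42 measured plastid genes for photosynthetic complexes and Rubisco passed, and in many of them libraries of a genotype differed more than the genotypes did. psbA, the D1 reaction-centre protein of photosystem II, read 102, 420 and 1065 RPKM in Col-0 and 56.6, 507 and 656 RPKM in csu6-2. rbcL, the large subunit of Rubisco, read 95.3, 301 and 804 RPKM in Col-0 and 59.6, 342 and 398 RPKM in csu6-2. Replicate 1 was the lowest library and replicate 3 the highest in both genotypes for both genes. The log2 changes were -0.42 (SE 1.45) and -0.50 (SE 1.22), so a difference of 2-fold either way lay within 2 SE.

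Within photosystem I, psaJ, a small subunit, averaged 329 ± 82.4 RPKM in Col-0 and 294 ± 66.9 RPKM in csu6-2. psaI, another small subunit, had the largest change of its group (log2 change -0.55, SE 0.47, limma adjusted p = 0.533). The reaction-centre genes psaA and psaB had log2 changes of 0.26 and 0.12 with SEs of 0.58 and 0.56. The assembly factor genes ycf3 and ycf4 had log2 changes of -0.37 and -0.55, with limma adjusted p-values of 0.613 and 0.604.

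In the cytochrome b6f complex, which links the photosystems, petN and petG had log2 changes of -0.41 and -0.50, with limma adjusted p-values of 0.784 and 0.609. In the ATP synthase, atpE, the epsilon subunit, stayed between 2242 and 2719 RPKM (log2 change 0.08, SE 0.09, limma adjusted p = 0.612), whereas atpF, a stalk subunit, ranged from 19.6 to 77.5 RPKM. All 10 measured plastid-encoded genes of the NDH complex, which returns electrons around photosystem I, had a log2 change below 0 and 0 passed. The copy ndhB.1, at 0.17 to 0.53 RPKM, was not among them. Of these, ndhK averaged 358 ± 44.7 and 310 ± 50.8 RPKM, and ndhD had the largest change (-0.71, SE 0.41, limma adjusted p = 0.342).

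**Figure D3:**
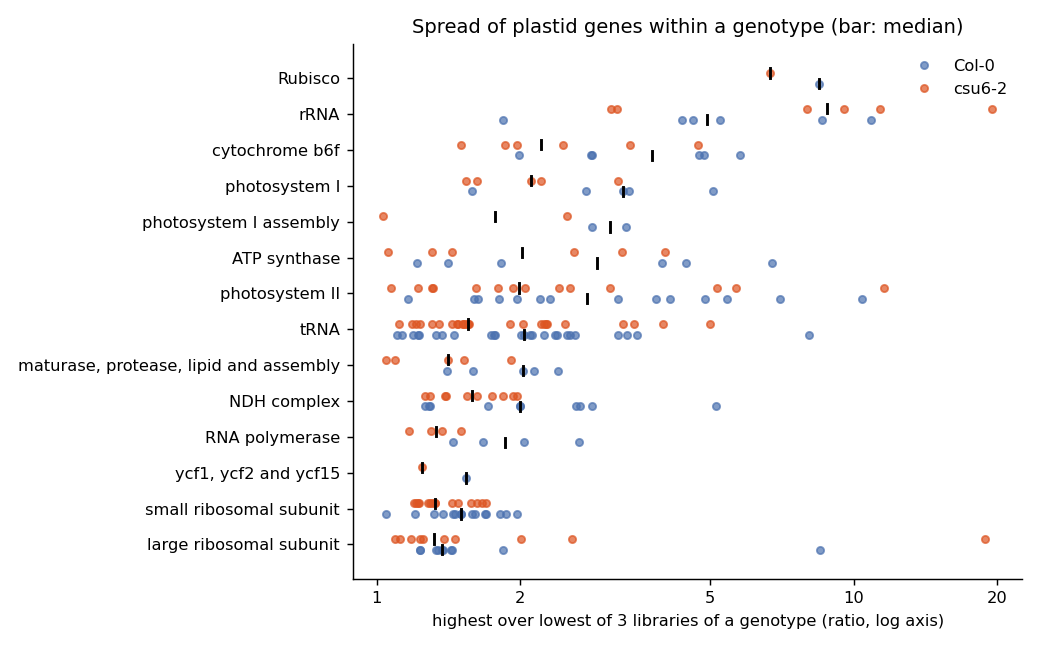
Highest over lowest RPKM (ratio, log axis) of the 3 libraries of a genotype for each plastid gene, by functional group; bars are medians. Medians in Col-0 run from 1.37 for the large ribosomal subunit to 8.44 for Rubisco (rbcL alone), and rRNA, which includes members with few reads, reaches 8.78 in csu6-2.

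The functional groups had different median spreads between libraries of a genotype, and their members ranged widely. Within photosystem II the ratio ran from 1.16 for psbM to 10.4 for psbA. No test of spread against function was made. The median ratio of the highest to the lowest Col-0 library was 8.44 for Rubisco, 4.92 for rRNA, 3.79 for cytochrome b6f, 3.28 for photosystem I and 2.76 for photosystem II. It was 1.37 for the large and 1.5 for the small ribosomal subunit, and 1.85 for the RNA polymerase. In csu6-2 the corresponding medians were 6.68, 8.78, 2.21, 2.1 and 1.99, then 1.32, 1.33 and 1.33. Rubisco is rbcL alone. Within rRNA, rrn4.5.1 rested on 1 to 9 reads per library and had ratios of 1.84 in Col-0 and 11.3 in csu6-2. Those of rrn23.1 were 4.59 and 3.11.

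Plastid rRNA, which oligo(dT) selection is meant to remove, mostly followed the same libraries. An exception was rrn4.5.1, at 2.00, 1.34 and 2.46 RPKM in Col-0 and 0.26, 2.95 and 2.39 RPKM in csu6-2. rrn16.1 read 7.27, 28.7 and 78.9 RPKM in Col-0 and 3.55, 31.6 and 33.9 RPKM in csu6-2, and rrn23.2 averaged 82.1 ± 64.3 and 57.0 ± 28.7 RPKM. The nuclear 18S rRNA, taken from its entry of highest level, read 931, 2676 and 7964 RPKM in Col-0 and 601, 3375 and 4180 RPKM in csu6-2. Mitochondria-encoded genes summed to 0.0568, 0.0667 and 0.161% of RPKM in Col-0 and 0.0530, 0.0765 and 0.110% in csu6-2. Apart from rrn4.5.1, replicate 1 was lowest and replicate 3 highest in each case. A second nuclear 18S entry, at 2.14 to 8.21 RPKM, had the same order. In the entries listed as nuclear 5S and 5.8S rRNA replicate 3 was also highest in both genotypes. There, however, Col-0 replicate 2 lay below replicate 1 (29.0 against 32.3 RPKM and 93.3 against 96.9 RPKM). Only the 18S entry of highest level was used below.

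Over the 6 libraries, psbA and the nuclear 18S rRNA had Pearson's r = 0.994 on the log2 scale (exact permutation p = 0.00139, the smallest that 6 libraries give, adjusted 0.64 over 18884 genes) and Spearman's rho = 1.00 (exact permutation p = 0.00278, adjusted 0.729). Without the 2 libraries farthest from the median 18S level, r was 0.996. rbcL had r = 0.998 with the same p-values, and 0.991 without those libraries. No gene passed the adjusted threshold for r. With 6 libraries it could be passed only if many genes shared the smallest p, so this outcome decides little. An r over 0.9 was found in 33 of 111 members (29.7%) and in 0.604% of all genes. The median r was -0.15 over all genes, 0.95 for photosystem II, 0.96 for rRNA, 0.27 for the small and 0.20 for the large ribosomal subunit. The part of the 18S level in the genotype comparison was examined by adding it to the fit, where 12 members (10.8%) were lower, against 11.3% of all tested genes, and 6 of the 9 called genes were still called. With that term the psbA difference was 0.06 on the log2 scale.

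**Figure D4:**
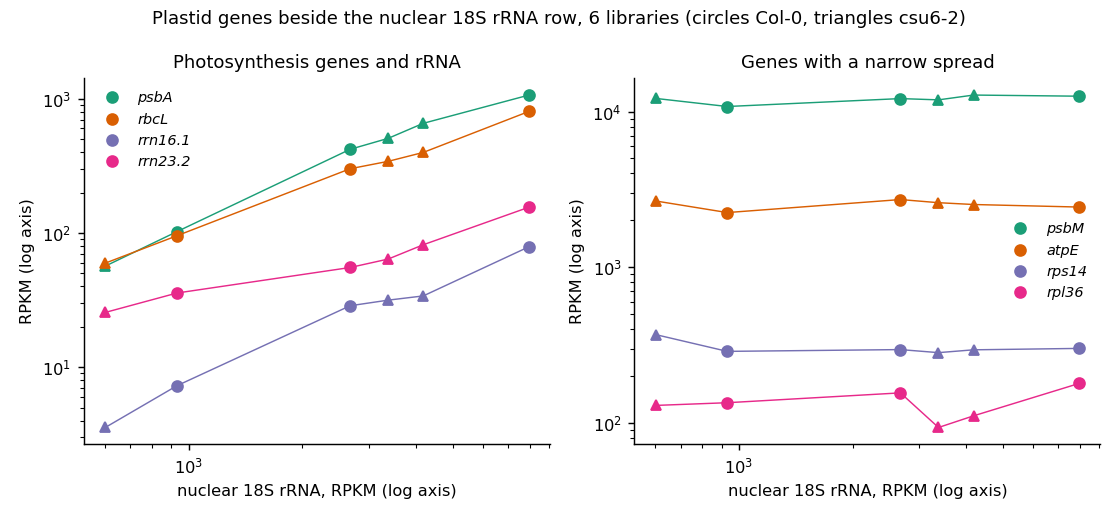
RPKM of 8 plastid genes against RPKM of the nuclear 18S rRNA in the same library, both on log axes, in 3 Col-0 (circles) and 3 csu6-2 (triangles) libraries; lines join the points of a gene. psbA, rbcL, rrn16.1 and rrn23.2 climb with 18S, psbA from 56.6 to 1065 RPKM, while psbM and atpE stay within 10771 to 12759 and 2242 to 2719 RPKM.

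The ratio of summed photosystem genes to summed ribosomal protein and RNA polymerase genes was 0.935, 0.927 and 1.02 in Col-0 and 1.14, 1.15 and 1.27 in csu6-2. All csu6-2 libraries lay above all Col-0 libraries (0.961 ± 0.0524 against 1.19 ± 0.0695, SD, n = 3 each, exact permutation p = 0.1, the smallest possible). psbM and rpl32 were most of both sums. Without them it was 0.526, 0.656 and 1.2 in Col-0 and 0.457, 0.953 and 1.13 in csu6-2, the groups overlapped, and the exact permutation p was 1.0.

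The nuclear genes that build and serve the same complexes were read in the same fit. In that fit 3.55% of all tested genes were higher in csu6-2 and 9.38% lower. Of the 12 nuclear photosystem I genes 10 were higher in csu6-2, with a median log2 change of 0.40, and of the 10 nuclear photosystem II genes 6 were higher, with a median of 0.36. PSBP1, an extrinsic protein of the oxygen-evolving complex, rose from 2810 ± 144 to 4140 ± 337 RPKM (log2 change 0.56, SE 0.09, limma adjusted p = 0.00142). These counts were 3 and 2 without csu6-2 replicate 2, and 6 and 3 without Col-0 replicate 2. The 19 measured plastid-encoded photosystem genes had 0 calls and a median log2 change of -0.20, and the difference between the nuclear and plastid lists was not tested. Of 8 nuclear genes for cytochrome b6f, ATP synthase and Rubisco subunits 0 were called, with a median of 0.11. The summed green tissue markers were 27730 ± 2381 RPKM in Col-0 and 31234 ± 210 RPKM in csu6-2, without overlap (exact permutation p = 0.1, the smallest possible). Singly the markers differed in direction and none passed. The log2 change was 0.27 for LHCB1.3, 0.20 for RBCS1A and 0.12 for RCA, but -0.22 for CA1 and -0.12 for GAPA1. The part of green tissue in the counts of nuclear genes was not tested.

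Of 12 nuclear genes for proteins that associate with the plastid polymerase 9 were lower, against 9.38% of all tested genes. The 12 had a median log2 change of -0.49. FSD2, an iron superoxide dismutase of the plastid nucleoid, fell from 85.8 ± 6.23 to 51.9 ± 1.54 RPKM (log2 change -0.71, SE 0.07, limma adjusted p = 8.57e-05). Of the 8 sigma factors and phage-type polymerases 2 were lower and 0 higher, with a median log2 change of -0.09 over the list. SIG4, a sigma factor that guides the plastid polymerase to promoters, fell from 35.8 ± 3.25 to 21.4 ± 1.40 RPKM (log2 change -0.71, SE 0.09, limma adjusted p = 0.000226). RPOTp, the phage-type polymerase of the plastid, fell from 16.08 ± 1.13 to 11.95 ± 0.0611 RPKM (log2 change -0.40, SE 0.08, limma adjusted p = 0.00782).

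Of 6 nuclear genes for plastid RNA decay and 3′ end processing 2 were lower (1 without csu6-2 replicate 2) and 0 higher. The median log2 change of this list was -0.03. RNE, CSP41A and CSP41B had log2 changes of 0.15, 0.09 and 0.14 and RNR1 of -0.16, and none of these passed. PNP, a polynucleotide phosphorylase that also adds A-rich tails to plastid RNA, fell from 38.5 ± 1.55 to 29.2 ± 3.20 RPKM (log2 change -0.39, SE 0.08, limma adjusted p = 0.00954). RNJ, the plastid ribonuclease J, fell from 29.99 ± 2.02 to 19.5 ± 3.70 RPKM (log2 change -0.61, SE 0.11, limma adjusted p = 0.0057). Of 27 nuclear genes for plastid ribosomal proteins 4 were lower and 0 higher, with a median log2 change of -0.17, and 0 were called with median-of-ratios scaling, without csu6-2 replicate 3 or without replicate 2 of Col-0. That count was 1 without Col-0 replicate 3 and 2 without csu6-2 replicate 2. Among 20 mitochondria-encoded genes 0 were called, with a median of -0.19.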

How the data were processed

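The authors deposited, for each of 6 libraries, a table without a header holding a gene identifier and an RPKM value rounded to 2 decimals; the unit was read from the values. The submitters' processing notes list the build TAIR10 and the tools HISAT2 and edgeR 3.0.8, without their roles. No label or header states the counting program, gene lengths or strand setting, so overlapping and antisense genes cannot be told apart, and reads shared by the copies of the inverted repeat may be split in ways the files do not show.

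Genes with at least 1 RPKM in 3 or more libraries (18885) were compared on log2(RPKM + 1) with limma 3.58.1 in R 4.3.3 (lmFit, eBayes with trend and robust, statmod 1.5.0), two-sided, with Benjamini-Hochberg adjustment over all of them and a threshold of 0.05. This scale understates changes of low genes. The test was tried on simulated data. Levels per library were compared with exact permutation tests.

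Names were given to plastid identifiers from the standard nomenclature, because the reference annotation holds no such identifiers for the plastid. The names were checked against the reference. Of 6 names found in notes of the reference 5 matched directly and ndhK matched through its older name psbG, 94 identifiers in single-copy regions followed the order of the TAIR10.1 plastid genes with 0 breaks, and RPKM multiplied by the RefSeq exon length and by 1 depth per library gave whole reads. Of 295 such values under 400 reads 290 were within 0.1 read of a whole number (98.3%). The depths were chosen to make these same values whole, so this share is a description of the reads quoted and no independent check. ycf3 was the exception, and ycf1.2 has no assigned length. Sequences and positions are from RefSeq TAIR10.1, and 1 sequence is not reported here. The named members are, in each functional group, the one of highest mean and the one of largest change, with psbA, rbcL, accD, clpP1 and every called gene; psaA, psaB, psbE and the nuclear genes were named after their values were seen. The members and lists were chosen with earlier results of these data known.

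Alternatives were other pseudocounts, filters and scalings, a plain eBayes, a replicate block, leaving out each library and, added after seeing the data, the 18S level as a covariate and the ratio and share without psbM and rpl32.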

Additional observations from a re-analysis of the deposited data

How the results depend on the processing

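No plastid gene was called higher in any of 15 alternative fits, and trnS-GCU, trnfM, trnT-UGU and rps15 were called lower in each. The number called lower was 5 with no filter on low values and ran from 4 to 35 when single libraries were left out (35 without Col-0 replicate 1). The replicate numbers were not treated as pairs in the fit reported above. Deviations from the group means of same-numbered libraries correlated at 0.20, 0.05 and 0.22 over all tested genes. Over the plastid genes they correlated at 0.81, -0.39 and 0.59. Not every pair exceeded 0.1, but these values cannot tell whether same-numbered libraries were handled together. With the replicate number as a block 24 members (21.6%) were lower, and 11.4% of all tested genes. Reversals touched genes that were not called. Leaving out single libraries gave log2 changes of -1.32 to 0.69 for psbA, -1.29 to 0.37 for rbcL, -1.49 to 0.32 for rrn16.1, -0.85 to 0.20 for rrn23.2, -0.78 to 0.18 for atpF, -1.01 to 0.10 for petN, -0.30 to 0.044 for psaJ, -0.0081 to 0.10 for psbM and -0.031 to 0.16 for rps14. With the 18S covariate psbA was at 0.055. The cause was not tested. Of 507 values for 34 named genes under these alternatives, 427 kept direction and side of the threshold, 39 lost the call and 24 gained one. RPKM rounded to 2 decimals limits members near 1 RPKM, where a library holds few reads.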

Other observations

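The inverted-repeat copy rpl2.2 read 5.79, 5.85 and 49.3 RPKM in Col-0 and 5.66, 87.1 and 4.62 RPKM in csu6-2, while the other copy, rpl2.1, stayed between 5.73 and 11.5 RPKM. The high values thus fell in 1 library of each genotype. psbF, which encodes a subunit of cytochrome b559 with psbE, read at most 1.51 RPKM and was not among the members, although psbE read 22.4 to 187 RPKM. atpB, the beta subunit of the ATP synthase, read 654 to 1031 RPKM while atpA, the alpha subunit, read 7.95 to 37.8 RPKM.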
